A study of Homo sapiens with 24 samples.

Results

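*MYC* and the genes of the MAX network were followed by PRO-seq (precision run-on sequencing, which sequences the 3' ends of nascent RNA and so counts engaged RNA polymerase) in T47D cells, a luminal breast cancer cell line that depends on the estrogen receptor (ER). The genes were taken by name: *MYC*, *MAX*, *MNT*, *MGA*, *MLX*, *MLXIP*, *MXI1*, *MXD1*, *MXD3* and *MXD4*, 10 of the 60605 genes in the count table. All 10 had enough reads to be tested, with 22326 genes tested in all. The cells were Clone 28, Clone 35 and Clone 39 of dTAG-TRPS1, each a single clonal line made with CRISPR/Cas9 in which only degron-tagged TRPS1 protein is expressed and the remaining *TRPS1* copies are knocked out. The DMSO controls carry the same tag, and the 3 clones were all derived from one earlier puromycin-selected clone, so untagged parental cells are not part of any comparison. Each clone was treated for 90 minutes with 0.1% v/v DMSO or with 100 nM dTAG-13, a compound that brings tagged TRPS1 to a ubiquitin ligase for degradation, in 4 replicates per group and 24 libraries in all. The replicates of a clone were handled at different times of one day and both treatments of a replicate were harvested together, so the replicate number pairs a DMSO library with a dTAG-13 library. Which number belongs to which time, and whether a number means the same time in different clones, is not stated in the sources used here.

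MYC is a basic helix-loop-helix leucine zipper transcription factor that binds DNA, most strongly at the E-box, only as a heterodimer with MAX, and activates genes for growth, ribosome production and cell division. MAX also pairs with the MXD proteins (MXD1, MXI1, MXD3 and MXD4), with MNT and with MGA, which compete with MYC for MAX and for the same sites and repress by recruiting SIN3 corepressor complexes or, for MGA, a variant Polycomb complex. MLX is the MAX-like partner of MLXIP (MondoA), a sensor of glucose, and it also pairs with some of the MXD proteins and with MNT. In luminal breast cancer cells *MYC* is a well-known direct target of ER.

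Totals were between 3226718 and 9575803 counts per library, with a median of 5042122. The cells had the luminal markers: all 8 listed ones were tested, and *ESR1* (ER) had between 5331 and 14598 counts per library, whereas the basal keratins *KRT5* and *KRT14* had at most 2 and 5 counts. Of 6 basal and mesenchymal and 4 blood and endothelial markers 2 each had enough reads to test, and 0 were called with dTAG-13. The tested basal and mesenchymal markers were *TP63*, with 22 to 192 counts per library, and *ZEB1*, with 13 to 38, so not every basal marker was silent. Of the luminal markers, *KRT19*, a luminal keratin, and *SPDEF*, an ETS factor, were lower with dTAG-13 (log2 fold changes of -0.13 and -0.14, adjusted p = 0.0346 and 0.0765), and neither was called when any one clone was left out. Without Clone 28, Clone 35 or Clone 39 the adjusted p was 1, 0.308 or 0.114 for *KRT19* and 1, 0.634 or 0.109 for *SPDEF*, and *SPDEF* was also lost without any 1 of 16 single libraries. *TRPS1* itself ranged from 5183 to 8747 CPM (counts scaled to library size with TMM factors) in DMSO and from 6304 to 9296 CPM with dTAG-13, which does not check the depletion because the degron removes the protein and not the gene.

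Per kilobase of gene, *MYC* had by far the most PRO-seq signal of the network. In the 12 DMSO libraries it had 9.94 ± 1.62 CPM per kb (SD, n = 12), with a range from 8.01 to 12.9. *MLX* followed with 5.76 ± 0.693 CPM per kb and *MXD3* with 3.90 ± 0.674, and their ranges overlapped each other but not that of *MYC*. *MXD4* had 2.05 ± 0.204, *MNT* 1.31 ± 0.358, *MAX* 1.10 ± 0.110, *MXD1* 0.888 ± 0.0756, *MLXIP* 0.792 ± 0.0689 and *MGA* 0.708 ± 0.0670 CPM per kb, and each of these overlapped its neighbour in the order. *MXI1* was lowest with 0.310 ± 0.0618 CPM per kb, below the range of every other network gene. In raw reads the network genes had between 36 counts (*MNT* in one Clone 39 library) and 1087 counts (*MAX* in one Clone 35 library). The lengths are those of the GENCODE genes. The interval in which reads were counted is not given in the sources used here, so paused polymerase near the start site and polymerase in the gene body are not separated.

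Of the related genes outside the 10, *MLXIPL* (ChREBP, a second glucose-responsive MLX partner) had a median of 64.6 CPM over the 24 libraries. *MYCL* had a median of 4.34 CPM, and *MYCN* was not tested because it had at most 4 counts in any library. *MYC* was thus the MYC paralog with by far the most signal.

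**Figure D1:**
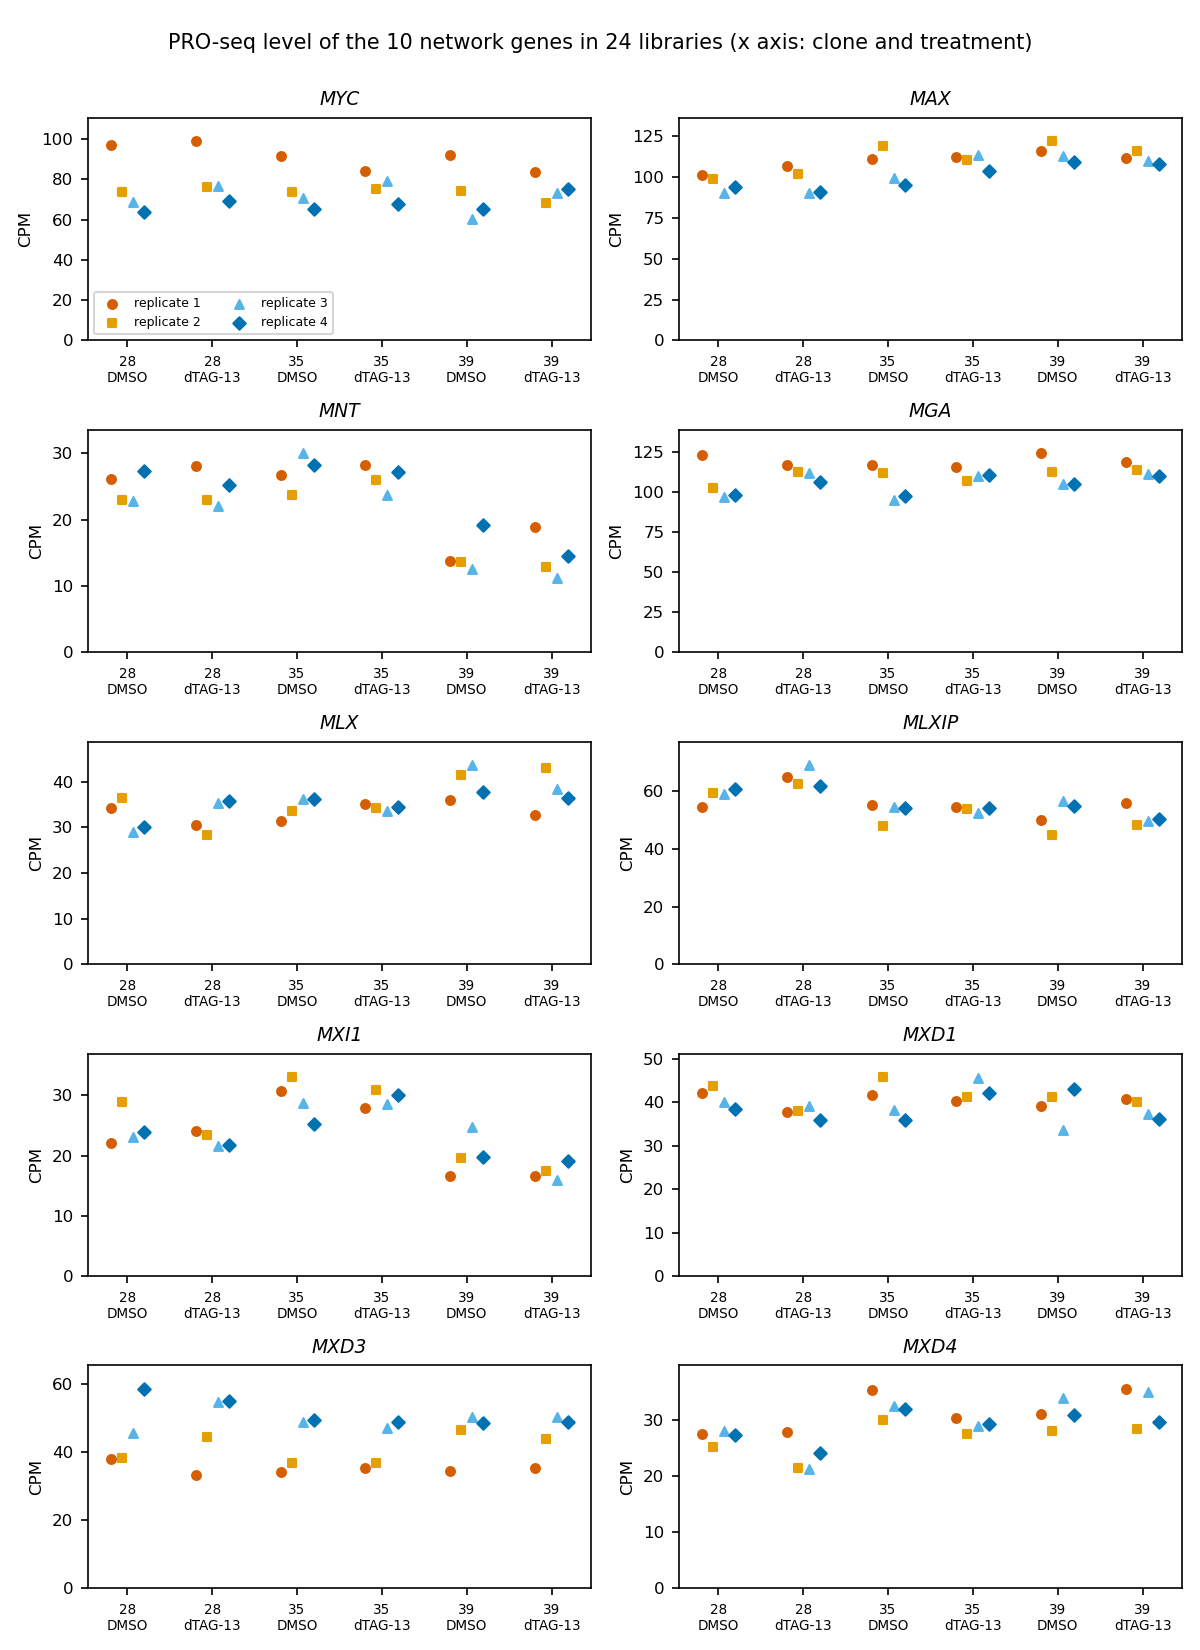
PRO-seq level in CPM (y axis, from 0) of each network gene in all 24 libraries, by clone and treatment (x axis), with the replicate number as colour and shape. The replicate 1 libraries have the highest *MYC* and the lowest *MXD3* of every group, and *MNT* is lowest in Clone 39, at 11.2 to 19.2 CPM.

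The E-box bound by these heterodimers is CACGTG, which reads the same on both strands. It was looked for in the RefSeq promoters of GRCh38.p14, which run from 250 bases before to 50 bases after a start site. The promoter of *MYC* was not searched. For the other 9 network genes 14 promoters were matched, and 3 of the 14 hold CACGTG, compared with 7.26% of all 35116 promoters. These are shown because, of the 9 genes searched, they are those whose own promoter carries the network's site, with CACGTG in capitals. They are *MNT* (chr17:2401011-2401310, minus strand, E-box 193 bases before the start), *MLX* (chr17:42566850-42567149, plus strand, 50 bases before) and *MXD4* (chr4:2262060-2262359, minus strand, 238 bases before). *MXD3* (chr5:177312703-177313002, minus strand) is shown beside them because its level varied most between replicate numbers, and CACGTG is not in this window.
MNT: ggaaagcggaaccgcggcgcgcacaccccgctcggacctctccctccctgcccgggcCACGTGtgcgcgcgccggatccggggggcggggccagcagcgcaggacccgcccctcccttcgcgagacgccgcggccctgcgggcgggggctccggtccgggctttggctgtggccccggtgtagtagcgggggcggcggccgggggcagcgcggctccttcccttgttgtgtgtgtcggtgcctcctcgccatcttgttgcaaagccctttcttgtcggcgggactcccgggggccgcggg
MLX: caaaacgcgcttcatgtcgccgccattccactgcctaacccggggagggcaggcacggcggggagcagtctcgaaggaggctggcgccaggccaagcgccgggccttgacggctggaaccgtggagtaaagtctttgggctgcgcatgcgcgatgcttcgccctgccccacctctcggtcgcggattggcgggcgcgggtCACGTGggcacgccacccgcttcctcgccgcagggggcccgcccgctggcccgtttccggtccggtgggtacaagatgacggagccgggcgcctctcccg
MXD4: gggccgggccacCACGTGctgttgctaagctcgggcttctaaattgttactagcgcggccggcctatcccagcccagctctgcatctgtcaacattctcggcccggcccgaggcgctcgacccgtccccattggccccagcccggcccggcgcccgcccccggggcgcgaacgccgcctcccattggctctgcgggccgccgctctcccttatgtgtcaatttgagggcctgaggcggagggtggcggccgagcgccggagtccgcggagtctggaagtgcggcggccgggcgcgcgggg
MXD3: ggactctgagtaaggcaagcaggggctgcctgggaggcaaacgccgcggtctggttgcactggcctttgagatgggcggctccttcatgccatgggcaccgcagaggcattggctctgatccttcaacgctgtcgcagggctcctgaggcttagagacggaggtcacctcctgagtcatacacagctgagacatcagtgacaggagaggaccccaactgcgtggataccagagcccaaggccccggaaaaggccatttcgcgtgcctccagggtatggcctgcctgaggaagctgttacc

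The related letters CACGCG (both strands) are in 3 of the 14 promoters, 1 each of *MGA*, *MXI1* and *MXD3*, and in 11.4% of all promoters. The ER half-site AGGTCA is in 1 of the 14, that of *MXD3*, 90 bases before the start, and in 13.8% of all promoters. GATA-family proteins, TRPS1 among them, bind letters such as AGATAA (10.3% of all promoters, both strands) or TGATAA (7.53%). These, and the forms AGATAG (6.63%) and TGATAG (5.8%), are in 0 of the 14. A match is a description of these letters and not evidence of binding.

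The main comparison asked whether removing TRPS1 for 90 minutes changes transcription of the network. None of the 10 genes passed the test: 0 were called with the 3 clones together, against 0.551% of all genes tested (quasi-likelihood F test in edgeR, p adjusted by Benjamini-Hochberg, threshold 0.1). None had an unadjusted p under 0.05, and DESeq2 also called 0. The median log2 fold change was -0.0067 over the 10 genes and -0.0018 over all genes tested. With the replicate block, in which each dTAG-13 library is compared with the DMSO library of the same clone and number, 0 of the 10 were again called, against 2.33% of all genes, and 2 (*MGA* and *MXD4*) had an unadjusted p under 0.05. On simulated counts with 200 changed genes in the expression range of the network, the test without the block found 66.5% of the genes shifted by 0.25 (log2). Of those shifted by 0.5 it found 98%. These are averages over many genes, simulated without shared differences between replicate numbers, and not the share for a single gene. *MYC* and *MXD3* had the largest standard errors of the 10 in this test (0.079 and 0.10).

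*MYC* (ENSG00000136997) lies on the plus strand of chromosome 8 from 127735434 to 127742951. In Clone 28 it had 97.0, 73.7, 68.6 and 64.0 CPM in DMSO replicates 1 to 4 and 98.9, 76.0, 76.8 and 69.1 CPM with dTAG-13. In Clone 35 it had 91.5, 73.9, 70.7 and 65.4 CPM in DMSO and 84.4, 75.1, 79.0 and 67.6 CPM with dTAG-13. In Clone 39 it had 92.0, 74.4, 60.2 and 65.3 CPM in DMSO and 83.7, 68.2, 73.4 and 75.4 CPM with dTAG-13. The treatments overlapped in every clone, and what stands out in all 6 groups is the first library, not the treatment. In 9 of 12 pairs the dTAG-13 library had more *MYC* (4 of 4 in Clone 28, 3 of 4 in Clone 35 and 2 of 4 in Clone 39). Its log2 fold change was 0.050 (standard error 0.079, 95% interval -0.11 to 0.21, adjusted p = 1), and with the block it was 0.055 (interval -0.015 to 0.13, adjusted p = 0.667). An exact permutation of treatment within clones, two-sided over 343000 arrangements, gave a difference of 0.057 and p = 0.485. It did not keep the pairs, so the differences between replicate numbers are part of its spread.

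By clone, the *MYC* log2 fold change was 0.081 in Clone 28 (interval -0.22 to 0.38), 0.030 in Clone 35 (-0.26 to 0.32) and 0.038 in Clone 39 (-0.27 to 0.35). With the replicate block these intervals were -0.038 to 0.21, -0.086 to 0.15 and -0.082 to 0.18. None of the 10 genes was called in any clone, where the background was 0.0537% of all genes in Clone 28 and 0% in Clone 35 and Clone 39. The change also did not pass the test of a difference between clones for any gene of the network, nor for any gene tested (0%). Over all 22326 genes, 407 had an unadjusted p under 0.05, fewer than chance alone gives at that level. With the block this test called 1 gene, outside the network. DESeq2 called 0 of the 10 for this difference as well.

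Among the partners and antagonists, *MAX* had a log2 fold change of 0.011 (interval -0.067 to 0.089) and the MAX-binding repressor *MNT* -0.037 (-0.19 to 0.11). *MGA* had 0.062 (-0.021 to 0.14) and was higher in 8 of 12 pairs. With the block its interval was 0.0045 to 0.13, and its adjusted p was 0.444. For the MLX branch, *MLX* had -0.025 (-0.13 to 0.084) and *MLXIP* 0.051 (-0.035 to 0.14). Of these 5 intervals that of *MNT*, the gene with the fewest reads, was the widest.

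*MLXIP* (ENSG00000175727, chromosome 12 from 122078756 to 122147344, plus strand) had treatments that did not overlap in Clone 28. How often treatments fail to overlap in a clone was not counted over all genes tested, so this describes the libraries only. In Clone 28 it had 54.4, 59.3, 59.0 and 60.7 CPM in DMSO and 65.0, 62.4, 68.995 and 61.8 CPM with dTAG-13, a log2 fold change of 0.14 (interval -0.0013 to 0.29, adjusted p = 1). In Clone 35 and Clone 39 the log2 fold changes were 0.018 and -0.016, and dTAG-13 was higher in 1 and in 2 of 4 pairs.

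The 4 MXD genes encode MAX-binding repressors, most of which are known to rise as cells stop dividing. *MXD4* (ENSG00000123933, chromosome 4 from 2247432 to 2262109, minus strand) had the log2 fold change farthest from 0, at -0.11 (interval -0.22 to 0.0097, adjusted p = 0.862, and with the block 0.486). In Clone 35 it had 35.3, 29.9, 32.3 and 31.8 CPM in DMSO and 30.3, 27.4, 28.8 and 29.1 CPM with dTAG-13, lower in all 4 pairs. In Clone 28 it was lower in 3 of 4 pairs and in Clone 39 in 1 of 4, and the test of a difference between clones gave adjusted p = 1. *MXI1* had -0.094 (-0.22 to 0.036), *MXD1* -0.024 (-0.12 to 0.077) and *MXD3* 0.015 (-0.19 to 0.22).

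**Figure D2:**
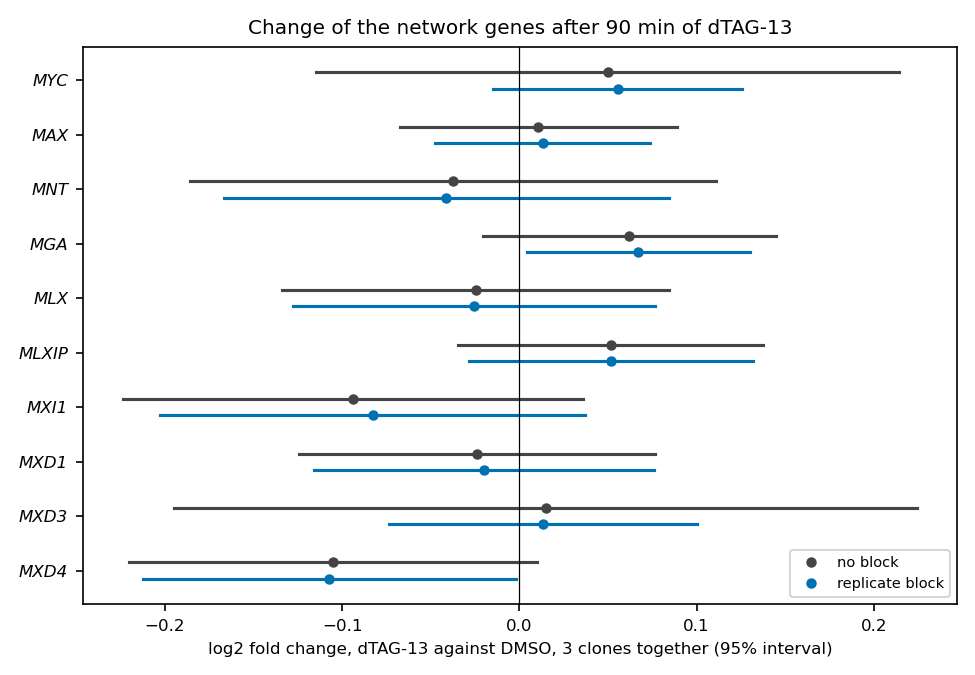
Log2 fold change of each network gene, dTAG-13 against DMSO with the 3 clones together (x axis), as points with 95% intervals, without the replicate block (grey) and with it (blue). Without the block every interval includes 0, and with it those of *MGA* (0.0045 to 0.13) and *MXD4* (-0.21 to -0.0019) do not, although neither gene was called.

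The listed targets of MYC gave few calls, as did all genes tested (0.551% called with dTAG-13, and 2.33% with the replicate block). At these shares lists this small would hold few calls in any case. Of 62 genes listed as MYC-activated (ribosome production, nucleotide synthesis and cell division), all were tested, 0 were called higher and 0 lower with dTAG-13, and the median log2 fold change was -0.0091. Of 6 genes listed as MYC-repressed, 0 were called, and with the block 1 was called higher: *THBS1* (thrombospondin, an inhibitor of angiogenesis), with 0.15 (adjusted p = 6.51e-05 with the block and 0.815 without it). None of 22 cofactors and turnover factors of MYC was called, nor of 8 other E-box factors (USF, TFE and SREBF families), nor *TXNIP* and *ARRDC4*, which MondoA with MLX induces, nor any of the 6 tested neighbours of *MYC* on chromosome 8.

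The 3 clones were next compared with each other in DMSO. *MNT*, *MXI1*, *MAX* and *MLX* differed, 4 of the 10 network genes (40%) against 28.5% of all genes tested. *MYC* did not pass this test, with clone means from 73.0 to 75.8 CPM and a largest difference of 0.044 on the log2 scale (adjusted p = 0.977). With the replicate number as a covariate 6 were called, against 39.7% of all genes, *MLXIP* and *MXD4* being added (adjusted p = 0.0639 and 0.0408). Without the covariate only pairs with Clone 39 gave calls: 5 between Clone 39 and Clone 28 (26.7% of all genes) and 2 between Clone 39 and Clone 35 (22.6%). Between Clone 35 and Clone 28 0 were called (5.25%, with 3 of the 10 at an unadjusted p under 0.05). With the number as covariate these counts were 5, 4 and 2, against 35.2%, 30.5% and 11.9% of all genes. In the dTAG-13 libraries 3 of the 10 (*MLXIP*, *MXI1* and *MXD4*) were called between Clone 35 and Clone 28, against 1243 of all 22326 genes tested. In libraries of many cells, fewer cells that transcribe a gene and less transcription per cell cannot be told apart. How often clones fail to overlap was not counted over all genes tested, so statements of overlap between clones describe the libraries only.

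*MNT* (ENSG00000070444, chromosome 17 from 2384073 to 2401104, minus strand) had the largest clone difference of the network. It had 26.1, 23.0, 22.8 and 27.3 CPM in Clone 28 and 26.7, 23.7, 30.0 and 28.2 CPM in Clone 35, against 13.8, 13.6, 12.5 and 19.2 CPM in Clone 39, all in DMSO. The highest Clone 39 library was below the lowest library of both other clones. The log2 difference was -0.73 between Clone 39 and Clone 28 (interval -1.01 to -0.45, adjusted p = 1.12e-04) and -0.87 between Clone 39 and Clone 35 (-1.14 to -0.59, adjusted p = 6.6e-06). With dTAG-13 Clone 39 had 18.9, 12.9, 11.2 and 14.6 CPM, and the differences were -0.75 and -0.85.

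The genes around *MNT* showed the same difference. Of 39 other tested genes within 1 Mb, all 39 had a lower estimate in Clone 39 than in Clone 28, and 32 were called lower, compared with 14.3% of all genes. Their median log2 difference was -0.91 (and -0.93 between Clone 39 and Clone 35), beside -0.0015 over all genes. Within 5 Mb, 143 of 169 were called lower and 1 higher, with a median of -0.87. Between Clone 35 and Clone 28 the median within 1 Mb was 0.028. *NCOR1*, a corepressor subunit, and *SREBF1*, an E-box factor of lipid synthesis, which also lie on the short arm of chromosome 17 and were picked out after their values were seen, differed between Clone 39 and Clone 28 by -0.80 and -1.11. DNA copy number was not analysed here, and its part in the *MNT* difference was not tested.

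*MXI1* (ENSG00000119950, chromosome 10 from 110207605 to 110287365, plus strand), an MXD-family repressor, was also lowest in Clone 39 but without its neighbours. It had 22.1, 28.9, 23.0 and 23.96 CPM in Clone 28, 30.8, 33.0, 28.8 and 25.3 CPM in Clone 35 and 16.6, 19.6, 24.8 and 19.8 CPM in Clone 39. Clone 35 and Clone 39 did not overlap (log2 difference -0.55, interval -0.78 to -0.32, adjusted p = 3.38e-04), whereas Clone 28 overlapped both. The difference between Clone 39 and Clone 28 was -0.29 (adjusted p = 0.0696, and 0.241, 0.244, 0.116 or 0.122 without Clone 28 DMSO replicate 2 or Clone 39 DMSO replicate 1, 2 or 4), and that of the 15 other tested genes within 1 Mb had a median of -0.065, with 2 called lower and 2 higher. With dTAG-13 *MXI1* was lower in Clone 39 than in Clone 35 by -0.75 and than in Clone 28 by -0.38.

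*MAX* (ENSG00000125952, chromosome 14 from 65006174 to 65102695, minus strand) and *MLX* (ENSG00000108788, chromosome 17 from 42567072 to 42573239, plus strand), the dimer partners of the network, were higher in Clone 39 than in Clone 28. *MAX* had a mean of 115 ± 5.43 CPM in Clone 39 and 96.1 ± 5.14 CPM in Clone 28 (SD, n = 4), a log2 difference of 0.26 (adjusted p = 0.00529), with no overlap. *MLX* had 39.7 ± 3.41 and 32.5 ± 3.50 CPM, a difference of 0.29 (adjusted p = 0.0315), and their ranges overlapped slightly. Without Clone 28 DMSO replicate 3 or 4, or Clone 39 DMSO replicate 3, the adjusted p for *MLX* was 0.115, 0.114 or 0.115. Neighbours within 1 Mb had medians of -0.0056 and 0.084. *MAX* overlaps *FNTB* on the opposite strand and *MLX* overlaps *PSMC3IP*, and whether counting used the strand is not given in the sources used here. Neither of these genes passed the test between Clone 39 and Clone 28 (log2 differences of -0.078 and -0.14).

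*MLXIP* was lower in Clone 39 than in Clone 28 by -0.18 (adjusted p = 0.0856, and 0.121 to 0.278 without Clone 28 DMSO replicate 2, 3 or 4, Clone 39 DMSO replicate 1 or 2, or Clone 35) and in Clone 35 by -0.14 (adjusted p = 0.387), and its neighbours moved in the same direction in both clones. The 47 other tested genes within 1 Mb had medians of -0.25 and -0.26, and 20 and 21 of them were called lower. Over all genes tested 14.3% were called lower in Clone 39 than in Clone 28. Between Clone 35 and Clone 28, 5.25% were called in either direction. *MXD4* had 26.9 ± 1.24 CPM in Clone 28, 32.3 ± 2.22 in Clone 35 and 30.9 ± 2.34 in Clone 39 (SD, n = 4), which missed the threshold (adjusted p = 0.103). In the dTAG-13 libraries 5 of the 10 differed between clones (*MNT*, *MXI1*, *MXD4*, *MLXIP* and *MAX*), against 27.5% of all genes. *MXD4* then differed by 0.45 between Clone 39 and Clone 28 (adjusted p = 8.39e-04). *MGA*, *MXD1* and *MXD3* had ranges between clones in DMSO of 0.089, 0.062 and 0.082 on the log2 scale, with adjusted p of 0.594, 0.874 and 0.945.

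**Figure D3:**
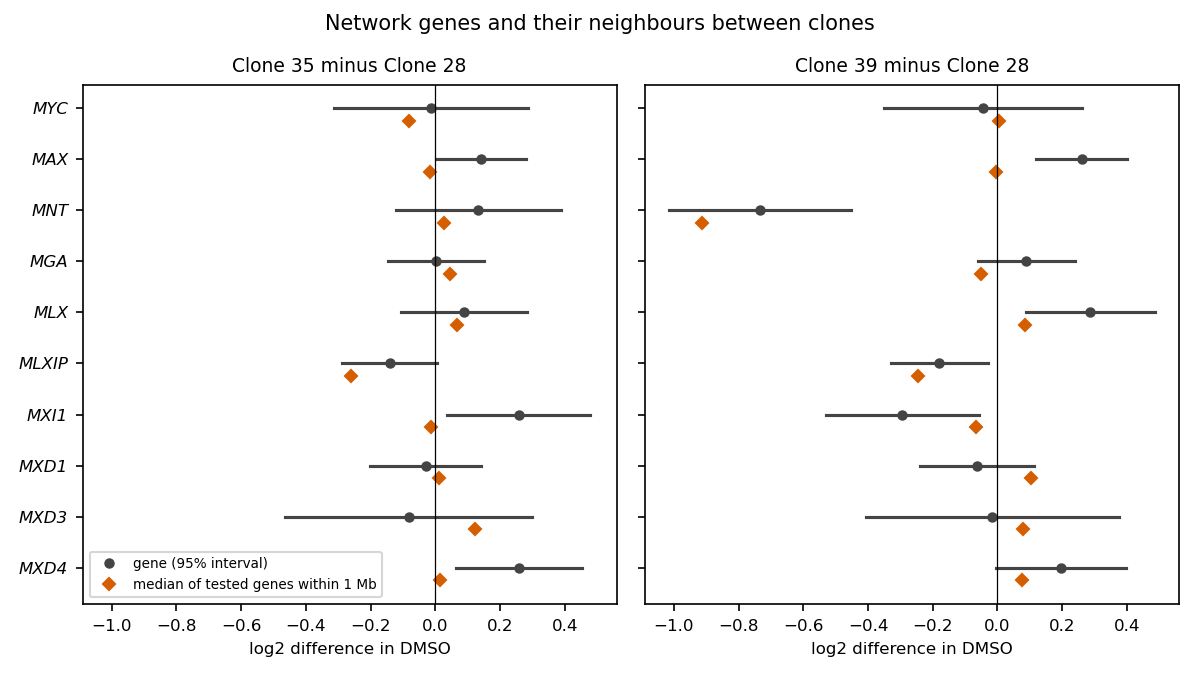
Log2 difference in DMSO of each network gene (grey points with 95% intervals) and the median over the other tested genes within 1 Mb (orange diamonds), for Clone 35 minus Clone 28 (left) and Clone 39 minus Clone 28 (right). *MNT* (-0.73) lies beside its neighbours (-0.91) in Clone 39, whereas *MAX* (0.26) and *MXI1* (-0.29) lie apart from theirs.

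The largest and most regular differences in *MYC* were between replicate numbers. Over all 24 libraries, with the 6 groups in the model, 6 of the 10 network genes differed between the 4 numbers (*MYC*, *MXD3*, *MGA*, *MAX*, *MNT* and *MXD4*), against 37.2% of all genes tested, so differences of this kind were common in the transcriptome. In the DMSO libraries alone *MYC*, *MXD3*, *MGA* and *MAX* were called (29.1% of all genes), and in the dTAG-13 libraries alone *MYC*, *MXD3* and *MNT* (19.5%). Since the time behind each number is not stated, no order in time is read from them. The test over all 24 libraries entered the DMSO and dTAG-13 libraries of a clone and number as separate. They were harvested together, so its p-values may be too small.

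*MYC* was highest in replicate 1 in 6 of 6 groups. Over the 6 groups it ranged from 83.7 to 98.9 CPM in replicate 1 and from 68.2 to 76.0 in replicate 2. In replicates 3 and 4 it ranged from 60.2 to 79.0 and from 64.0 to 75.4, so replicate 1 did not overlap the others. How often a replicate number stands apart like this was not counted over all genes tested. Against replicate 1 the log2 differences were -0.31, -0.34 and -0.43 for replicates 2, 3 and 4, with standard errors of 0.051, 0.050 and 0.050 (adjusted p = 1.05e-09 for any difference between the numbers). Each is several times the estimate for dTAG-13. In DMSO alone the differences were -0.34, -0.48 and -0.53, and with dTAG-13 alone -0.28, -0.21 and -0.33. The test of whether the change with dTAG-13 differs between numbers called 0 of the 10 (1.73% of all genes), with adjusted p = 0.303 for *MYC* and 0.364 for *MGA*, both of which had an unadjusted p under 0.05. DESeq2 called 0 of the 10 here too.

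*MXD3* (ENSG00000213347, chromosome 5 from 177301461 to 177312757, minus strand), an MXD repressor known to be made in dividing cells during S phase, went the other way and was lowest in replicate 1 in 6 of 6 groups. In Clone 28 it had 37.8, 38.3, 45.6 and 58.3 CPM in DMSO replicates 1 to 4 and 33.2, 44.5, 54.7 and 54.8 CPM with dTAG-13. In Clone 35 it had 34.1, 36.7, 48.9 and 49.5 CPM in DMSO and 35.2, 36.8, 46.99 and 48.8 CPM with dTAG-13. In Clone 39 it had 34.5, 46.3, 50.1 and 48.5 CPM in DMSO and 35.4, 43.8, 50.3 and 48.7 CPM with dTAG-13. Replicates 3 and 4 were above replicates 1 and 2 in every group. Against replicate 1 the log2 differences were 0.22, 0.50 and 0.55 for replicates 2, 3 and 4 (adjusted p = 9.91e-11 for any difference).

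*MXD3* shares its locus with *RAB24* on the same strand and with *PRELID1* on the other, so reads counted for it may belong in part to these. *RAB24* had 38 to 132 counts per library against 139 to 449 for *MXD3*, and its differences from replicate 1 were 0.060, 0.42 and 0.17 (adjusted p = 0.00988). *PRELID1* had -0.043, 0.14 and 0.010 (adjusted p = 0.492).

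Within a library the ratio of *MYC* to *MXD3* counts does not depend on scaling. It ranged from 2.37 to 2.98 in the 6 libraries of replicate 1 (median 2.62), from 1.56 to 2.04 in replicate 2 (median 1.82), from 1.20 to 1.68 in replicate 3 (median 1.45) and from 1.10 to 1.55 in replicate 4 (median 1.33). Replicate 1 did not overlap any other number, and replicates 3 and 4 overlapped almost fully. Both genes had already been seen to differ between the numbers in opposite directions. The separation follows from those values and is no further support for them. How often other pairs of genes separate in this way was not counted.

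*MGA* (ENSG00000174197, chromosome 15 from 41621134 to 41773081, plus strand) followed *MYC*, with its highest library in replicate 1 in 6 of 6 groups and log2 differences of -0.12, -0.18 and -0.19 (adjusted p = 7.24e-04). *MAX* differed by 0.018, -0.10 and -0.14 (adjusted p = 0.00395), *MNT* by -0.22, -0.21 and 0.00026 (adjusted p = 0.0482) and *MXD4* by -0.22, -0.079 and -0.11 (adjusted p = 0.0942). *FNTB*, which overlaps *MAX* on the opposite strand, differed by 0.10, 0.16 and 0.15 (adjusted p = 0.0102). In replicates 3 and 4 this was the direction opposite to *MAX*. *MNT* was still called without Clone 35 but not without Clone 28 or Clone 39 (adjusted p = 0.299 or 0.265), and without any one clone that of *MXD4* was 0.256 to 0.278. The call of *MXD4* was also lost when any 1 of 12 of the 24 libraries was left out (adjusted p up to 0.198). *MLX*, *MLXIP*, *MXI1* and *MXD1* did not pass the test (adjusted p from 0.365 to 0.617), and their largest differences between numbers were 0.10, 0.11, 0.16 and 0.11.

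**Figure D4:**
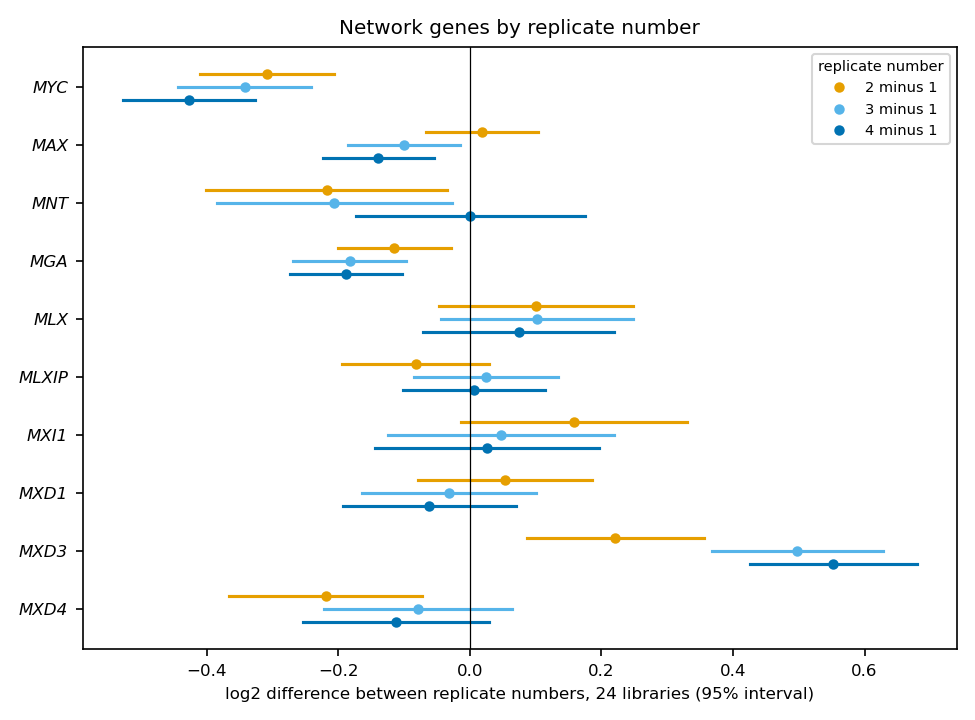
Log2 difference of replicate numbers 2, 3 and 4 from number 1 for each network gene over the 24 libraries (x axis), as points with 95% intervals. *MYC* and *MGA* are lower in all 3 other numbers, by up to 0.43 and 0.19, and *MXD3* is higher in all 3, by 0.22 to 0.55.

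The long noncoding RNA gene next to *MYC*, *PVT1*, was also highest in replicate 1, with log2 differences of -0.17, -0.20 and -0.15 (adjusted p = 2.8e-08). *CASC11*, which overlaps *MYC* on the opposite strand and had 41 to 188 counts per library, had -0.31, -0.11 and -0.18 (adjusted p = 0.233). Of the 62 MYC-activated genes 30 (48.4%) differed between numbers, against 37.2% of all genes. Of these 30, 13 (43.3%) were highest in replicate 1 and 4 (13.3%) lowest there, beside 32% and 35.5% of all genes that differed between numbers. *WDR43* and *PPAN*, both in ribosome production, had -0.25, -0.55 and -0.43, and -0.23, -0.30 and -0.45. *PLK1*, a mitotic kinase, had 0.058, 0.40 and 0.51, and *HSPD1*, a mitochondrial chaperone, 0.0059, 0.32 and 0.33. These 4 were picked after their values were seen. Of the 22 cofactors and turnover factors of MYC 14 (63.6%) differed between numbers, 1 highest and 6 lowest in replicate 1. Of the 6 MYC-repressed genes 5 (83.3%) differed, 2 highest and 1 lowest there. Of the 8 luminal markers 6 (75%) differed, 2 highest and 0 lowest there. More genes highest than lowest in replicate 1 were thus not particular to the MYC-activated list. Whether any list followed *MYC* was not tested.

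The genes whose level followed *MYC* most closely over the 24 libraries, after the mean of each clone was removed, were *REEP5* (Pearson's r of 0.914), *MED13L* (0.906), ENSG00000279765 (0.898, with no GENCODE 44 name), *MYOF* (0.891) and *RBM39* (0.886). All 5 were highest in replicate 1 on average, and none was called with dTAG-13. Among the network genes r with *MYC* was 0.834 for *MGA*, 0.566 for *MAX* and -0.788 for *MXD3*, and it lay between -0.334 and 0.273 for the others. The choice of these 5 was not stable: without Clone 28, 35 or 39, 2, 3 or 0 of them were again among the 5 highest. The 24 libraries share their replicate numbers and pairs, so these values describe the libraries and carry no test.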

How the data were processed

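PRO-seq libraries were grouped by clone and treatment as labelled. The values the authors deposited are raw counts of reads per gene and library. The authors trimmed adapters with cutadapt 1.8.1, deduplicated by UMI with fqdedup, removed ribosomal DNA reads, aligned with Bowtie2 2.4.4 to hg38 and counted with bedtools. The annotation and strand setting are not given in the sources used here. Names and places come from GENCODE 44 (60463 of 60605 genes).

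Counts were tested in R 4.3.3 with edgeR 4.0.16 (filterByExpr with a minimum count of 10, TMM, robust quasi-likelihood fits, Benjamini-Hochberg adjustment over 22326 genes, threshold 0.1). The models had clone and treatment, the 6 groups, or the groups and replicate number. Other tests on log2 CPM used a prior count of 2. Scripts were tested on simulated data. Replicate numbers pair the treatments of a clone by the labels' protocol, and paired libraries deviated together (correlation 0.0926 to 0.318 over 12 pairs). Replicates differed beyond sampling noise (chi-square per degree of freedom 1.66 to 13.8). They are separate treatments of one line on one day, so p-values measure that spread.

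The genes and lists were chosen with earlier results of these data known. Besides the 10, the text names up to 5 genes per list past the threshold with dTAG-13, and the 5 genes most correlated with *MYC*. Alternatives were RLE factors, library totals, no filter, 10 counts in every library, DESeq2 1.42.0, a threshold of 0.05, the replicate block, and leaving out each library or clone. The numbers in dTAG-13 libraries alone and the clones in dTAG-13 libraries were added after seeing the data. One list of partner genes is not reported here.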

Additional observations from a re-analysis of the deposited data

Results flagged for a closer look

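One library of 1 gene stood far from the other 3 of its group: *MLXIP* in replicate 2 of Clone 35 in DMSO, at 47.9 CPM, where the others had 55.3, 54.6 and 54.2 CPM. This came from 60 groups of 4 libraries (10 genes in 6 groups), of which chance alone gives about 3.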

How the results depend on the processing

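The count of network genes called with dTAG-13 was 0 under every alternative run. The number differing between clones in DMSO (4) was 2 without Clone 28 and 0 without Clone 39, and 3 to 5 without single libraries. The number differing between replicate numbers (6) was 3 in the dTAG-13 libraries only, an alternative chosen after seeing the data, 4 with DESeq2 and with no filter on low counts, and 5 to 6 without single libraries. Small dTAG-13 estimates changed sign: *MXD1* was 0.025 and *MXD3* -0.0087 without Clone 28, *MAX* -0.012 without Clone 35 and *MLX* 0.0013 without Clone 39. Without single libraries *MYC* ranged from -0.028 to 0.22 in Clone 28, from -0.032 to 0.13 in Clone 35 and from -0.041 to 0.18 in Clone 39, *MAX* from -0.0076 to 0.028 and *MXD3* from -0.016 to 0.057 over the clones. The cause of these shifts was not tested. The replicate block left the count with dTAG-13 at 0 and changed no other call beyond those given in the report. Some calls of single genes were lost: with no filter the adjusted p of *MAX* for any difference between numbers was 0.179 (0.00395 in the report) and that of *MXD4* 0.194. The adjusted p of *MXI1* and *MLXIP* between Clone 39 and Clone 28 was then 0.12 and 0.189. With DESeq2 the adjusted p of *MNT* and *MXD4* for any difference between numbers was 0.175 and 0.314. Between Clone 39 and Clone 28 in DMSO, DESeq2 gave *MXI1* and *MLXIP* an adjusted p of 0.106 and 0.14. Scaling by library totals only gave *MLXIP* 0.13 in that comparison.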

Other observations

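Of the genes outside the network that share its partners, *MLXIPL* differed between replicate numbers (0.057, 0.22 and 0.21 above replicate 1 for replicates 2, 3 and 4, adjusted p = 2.07e-04 by edgeR), in the direction of *MXD3* and opposite to *MYC*. *TXNIP*, the gene best known to be induced by MondoA with MLX, also differed (0.36, 0.29 and 0.11, adjusted p = 3.42e-05), although *MLX* and *MLXIP* did not pass that test. *AURKA*, whose kinase stabilises MYC-family proteins, had 0.17, 0.40 and 0.57 (adjusted p = 4.87e-06). In Clone 39, *RUVBL1*, an ATPase cofactor of MYC, was lower than in Clone 28 by -0.50, and *NDRG1*, a gene MYC represses, by -0.98, and neither changed past the threshold with dTAG-13. These 5 genes were picked after their values were seen.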
